A study of Rattus norvegicus with 12 samples.

Results

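The hexokinases, phosphofructokinases, enolase and lactate dehydrogenase of glycolysis, with the ketohexokinase of fructose breakdown, were examined in rat liver and renal cortex through the genes Hk1, Hk2, Pfkl, Pfkm, Pfkp, Eno1, Ldha and Khk. Every probe set whose platform annotation gives 1 gene symbol, and that symbol is 1 of these 8, was taken whatever its values, which gave 14 of the 31099 probe sets on the array, for 8 of the 14218 genes named by a probe set of their own. Hk1 has 5 of them, 3 of which are control probe sets of the manufacturer, Pfkm has 3, and the other genes have 1 each. The study asked what trichloroethylene (TCE), a chlorinated solvent, does in rats that then excrete formic acid. Male rats of the strain labelled F-344 (Wistar-derived), 7 to 9 weeks old and weighing 190 to 240 g, took daily oral doses of TCE on 3 days. The dose was 16 mg/kg, carried in 5 ml/kg of corn oil. Control rats received the corn oil alone, so the oil was common to all groups. The rats were killed with a delay of 24 h from the final dose, and about 50 mg of liver and of renal cortex was taken from each. Each of the 4 groups, TCE liver, control liver, TCE kidney and control kidney, held 3 arrays from 3 rats, and each of the 6 rats gave both tissues. Whether an equal replicate number in liver and kidney stands for the same animal is not stated in the labels.

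Glycolysis converts glucose to pyruvate. Hexokinases trap glucose in the cell as glucose 6-phosphate, phosphofructokinases make fructose 1,6-bisphosphate in the committed and most regulated step, enolase makes phosphoenolpyruvate, and lactate dehydrogenase interconverts pyruvate and lactate. Ketohexokinase phosphorylates fructose at another carbon, so that fructose enters the pathway below phosphofructokinase. Most of these steps are shared by isoenzymes from separate genes, and the liver is known for glucokinase and the liver type phosphofructokinase, the kidney for a proximal tubule that makes glucose and distal segments that consume it.

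In the liver, the control rats had more Pfkl, Eno1, Ldha and Khk RNA than any TCE rat had, and in renal cortex the same was seen for Pfkl and Eno1. The sequences just before the start sites of these 4 genes are shown because they are the members that were lower in the TCE rats without overlap. RefSeq promoter entries on build GRCr8 matched all 8 genes with 10 start sites, and the 250 bases before each start were searched on both strands. The letters searched were ACGTG, the core of the element bound by hypoxia-inducible factors, CACGTG, the palindromic E-box, which contains that core, and GGGCGG, the GC box. Capitals mark matches to ACGTG or GGGCGG on either strand. The Pfkl sequence is chr20:10663715-10663964 on the plus strand. Eno1 has a start preceded by chr5:166002617-166002866 and another by chr5:166003111-166003360, both on the plus strand. The Ldha sequence is chr1:106507842-106508091 on the plus strand, and that of Khk is chr6:31175482-31175731 on the minus strand. Each is written 5′ to 3′ toward its start site.
Pfkl: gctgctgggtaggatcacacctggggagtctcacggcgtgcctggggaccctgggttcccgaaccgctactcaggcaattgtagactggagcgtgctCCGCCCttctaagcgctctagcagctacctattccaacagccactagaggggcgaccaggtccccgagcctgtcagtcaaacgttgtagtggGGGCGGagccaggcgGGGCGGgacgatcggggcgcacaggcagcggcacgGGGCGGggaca
Eno1 upstream start: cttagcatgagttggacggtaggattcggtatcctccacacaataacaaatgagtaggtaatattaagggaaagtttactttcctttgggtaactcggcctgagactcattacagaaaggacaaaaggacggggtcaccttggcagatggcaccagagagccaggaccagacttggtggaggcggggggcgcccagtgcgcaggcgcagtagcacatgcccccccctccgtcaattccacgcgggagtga
Eno1 downstream start: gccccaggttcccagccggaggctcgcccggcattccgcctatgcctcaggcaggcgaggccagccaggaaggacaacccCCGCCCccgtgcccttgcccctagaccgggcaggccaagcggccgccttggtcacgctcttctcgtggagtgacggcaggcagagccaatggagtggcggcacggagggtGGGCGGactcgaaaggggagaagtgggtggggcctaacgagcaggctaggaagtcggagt
Ldha: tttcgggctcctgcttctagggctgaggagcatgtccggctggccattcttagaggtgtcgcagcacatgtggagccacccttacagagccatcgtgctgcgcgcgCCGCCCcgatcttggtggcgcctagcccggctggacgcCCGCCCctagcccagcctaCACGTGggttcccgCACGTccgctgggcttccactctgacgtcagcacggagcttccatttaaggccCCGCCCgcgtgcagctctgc
Khk: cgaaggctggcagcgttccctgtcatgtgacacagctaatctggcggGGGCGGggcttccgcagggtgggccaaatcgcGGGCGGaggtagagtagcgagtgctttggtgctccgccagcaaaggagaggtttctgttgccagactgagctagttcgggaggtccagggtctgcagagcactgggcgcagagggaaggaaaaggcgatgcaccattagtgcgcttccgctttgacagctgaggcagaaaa

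The Pfkl sequence held 4 GC boxes and no match to ACGTG. Ldha held 3 GC boxes and 3 matches to ACGTG, of which an overlapping pair comes from the only E-box among the 10 sequences. The downstream Eno1 start and Khk had 2 GC boxes each, with no ACGTG, and the upstream Eno1 start had neither. Among the other members, Pfkp had 2 GC boxes, Pfkm had 1 ACGTG, 1 of the 2 Hk1 starts had 2 GC boxes and 1 ACGTG, and Hk2 and the other Hk1 start had neither. Over all 33469 RefSeq promoter sequences of this length, 30.5% held a GC box, 16.6% held ACGTG and 5.59% held CACGTG. These matches describe the letters in the window only.

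The deposited values are log2 expression, where 1 unit is a doubling, from a lowest value of 2.17, shared by many probe sets, to 16.5. The median of an array was 3.51 to 3.54 in the 6 livers and 3.88 to 3.96 in the 6 kidneys. Arrays of 1 group correlated across probe sets at r = 0.993 to 0.997, and liver with kidney at 0.851 to 0.864. The labels fitted the markers of each tissue: the summed linear level of 9 hepatocyte markers was 339867 to 353412 in the livers and 17050 to 31271 in the kidneys, and that of 8 proximal tubule markers was 103642 to 119988 in the kidneys and 4987 to 6425 in the livers. In kidney control 2, Alb, the plasma albumin made by hepatocytes, stood at 8.72% of its mean linear level in liver, against 0.0251 to 2.44% in the other kidneys, so the members' differences that rest on this array are also given without it. On the same array the hepatocyte markers Ttr, Cps1, Serpina1 and Apoa1 read 8.21, 6.15, 6.35 and 2.44 log2 units. Their control liver means were 15.67, 14.69, 15.45 and 14.82, so each stood at a smaller share of its liver level than Alb. All 4 skeletal muscle markers found on the array were at the lowest value on every array. A value for whole tissue cannot tell fewer cells of a type from less RNA per cell, which holds for every result that follows. The number of 3 rats a group limits the precision throughout.

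**Figure D1:**
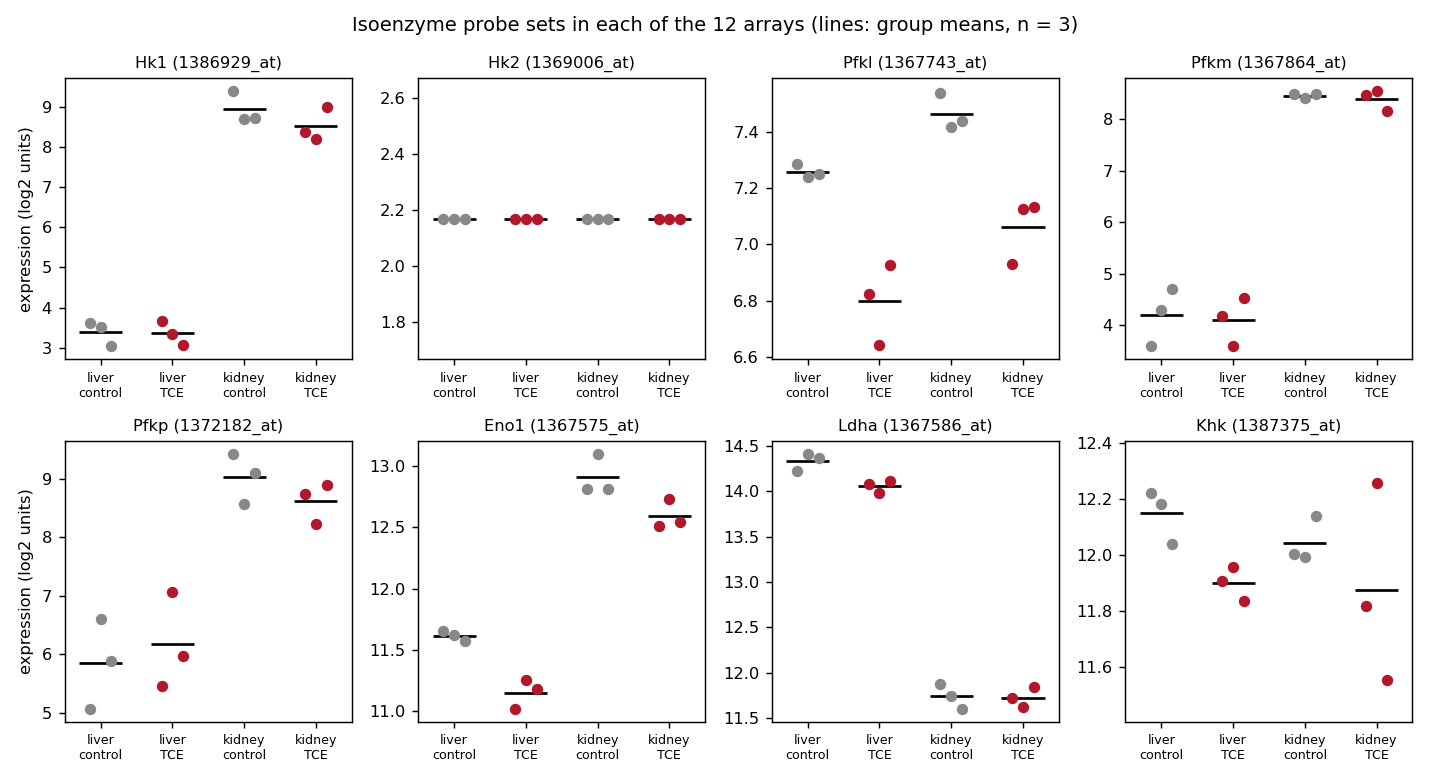
Deposited log2 expression of 1 probe set for each of the 8 genes on every array, with liver and renal cortex on the horizontal axis (grey, control; red, TCE; lines, group means of 3 rats) and a separate vertical scale in each panel. Hk1, Pfkm and Pfkp stand higher in kidney than in liver, and Ldha stands higher in liver. Hk2 is at 2.17 on all arrays, and the control values of Pfkl and Eno1 lie above the TCE values in both tissues.

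The hexokinases included the member with the widest gap between the tissues. Hk1, the hexokinase of most tissues, read 9.39, 8.70 and 8.72 in the control kidneys and 8.37, 8.20 and 8.99 in the TCE kidneys on its brightest probe set. In liver the same probe set read 3.63, 3.52 and 3.04 in the controls and 3.67, 3.34 and 3.07 after TCE. Every kidney was therefore far above every liver, and TCE and control overlapped in both tissues. In control rats liver was lower than kidney by 5.54 log2 units (SE 0.25), which is 46.5-fold less RNA, with an adjusted p of 1.68e-05 by limma. In TCE rats it was lower by 5.16 (SE 0.26), or 35.7-fold, with an adjusted p of 2.32e-05. The liver values lie near the array median, so the fold is less exact than the direction.

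The other hexokinase probe sets were dim. A further Hk1 probe set read 2.42 on 11 of the 12 arrays and did not pass the filter on low values. The manufacturer's 3 hexokinase control probe sets, annotated to Hk1, lie along its transcript: those named 5 and M were at the lowest value on all 12 arrays, and the one named 3 read 2.30 to 2.33 in liver. In kidney that last probe set read 4.53, 2.34 and 3.41 in the controls and 2.90, 2.69 and 3.33 after TCE. Its kidney values all exceeded its liver values, as on the brightest Hk1 probe set, and control probe sets were not tested. Hk2, the insulin-responsive hexokinase of muscle and fat, was at the lowest value of 2.17 on all 12 arrays, so no difference could be measured for it. Glucokinase and Hk3 were not analysed here, and Hkdc1, a hexokinase-like gene, was also at 2.17 on every array.

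Of the phosphofructokinases, the muscle and platelet types were higher in kidney in these rats, while the liver type differed little between the tissues. Pfkm, the muscle type, read 8.48, 8.40 and 8.48 in control kidneys and 8.46, 8.54 and 8.15 in TCE kidneys on its brightest probe set. In liver it read 3.59, 4.30 and 4.70 in the controls and 4.18, 3.59 and 4.53 after TCE. No liver came within 3 log2 units of a kidney, and the spread among livers was wider than among kidneys. Liver was lower by 4.25 log2 units (SE 0.28, 19.1-fold, adjusted p = 7.23e-05) in control rats and by 4.28 (SE 0.26, 19.5-fold, adjusted p = 4.83e-05) in TCE rats. The lowest liver values lie near the array medians, so the fold is less exact than the direction.

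A dimmer Pfkm probe set showed the same order at lower values. It read 5.42, 4.36 and 5.00 in control kidneys and 5.15, 4.51 and 5.56 in TCE kidneys. The livers ranged from 2.34 to 2.96 over both groups, below every kidney. Liver was lower by 2.14 (SE 0.31, 4.41-fold, adjusted p = 0.00179) in control rats and by 2.51 (SE 0.29, 5.69-fold, adjusted p = 0.00069) in TCE rats. These liver values lie under the array medians, so here too the fold is less exact than the direction. The remaining Pfkm probe set held 4.13 on 11 of 12 arrays and 4.15 in kidney control 3. It passed the filter but shows no variation to describe.

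Pfkp, the platelet type, was again higher in kidney, with a wider spread in liver than any other member. It read 9.42, 8.56 and 9.09 in control kidneys and 8.73, 8.23 and 8.88 in TCE kidneys. The livers read 5.06, 6.60 and 5.88 in the controls and 5.45, 7.06 and 5.97 after TCE. All kidneys exceeded all livers, while the TCE and control values interleaved in each tissue. Liver was lower by 3.18 log2 units (SE 0.44, 9.06-fold, adjusted p = 0.00151) in control rats and by 2.45 (SE 0.44, 5.46-fold, adjusted p = 0.00445) in TCE rats.

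Pfkl, the liver type that forms most of the hepatic enzyme, had a narrow gap between the tissues. It read 7.29, 7.24 and 7.25 in control livers and 7.54, 7.42 and 7.44 in control kidneys, without overlap. Liver was lower by 0.21 log2 units (SE 0.07, adjusted p = 0.0401) in control rats, but the difference turned to 0.20 when each array was centred on its median and was -0.0038 after another quantile normalization. The call was also lost under leaving out any 1 of the 6 arrays and under most other alternatives, with an adjusted p of 0.0903 when the replicate number was a block. In TCE rats liver was lower by 0.27 (SE 0.11), with an adjusted p of 0.0783, and higher by 0.12 after centring.

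Below phosphofructokinase, enolase was higher in kidney and lactate dehydrogenase A in liver. Eno1, the enolase of most tissues, read 12.81, 13.10 and 12.82 in control kidneys and 11.65, 11.62 and 11.57 in control livers. Liver was lower by 1.30 log2 units (SE 0.10, 2.45-fold, adjusted p = 0.000146) in control rats and by 1.45 (SE 0.10, 2.72-fold, adjusted p = 8.61e-05) in TCE rats. Ldha, the subunit that favours lactate formation, read 14.23, 14.41 and 14.37 in control livers and 11.88, 11.74 and 11.60 in control kidneys. Liver was higher by 2.59 log2 units (SE 0.10, 6.04-fold, adjusted p = 9.09e-06) in control rats and by 2.33 (SE 0.09, 5.02-fold, adjusted p = 6.94e-06) in TCE rats. On the deposited scale it was the only member that passed the test with liver above kidney.

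Khk, which starts fructose breakdown in liver and proximal tubule, stood at nearly the same level in both tissues. Control livers read 12.22, 12.18 and 12.04, and control kidneys 12.00, 11.99 and 12.14, with overlap. Liver exceeded kidney by 0.10 log2 units in control rats (95% interval -0.11 to 0.31, adjusted p = 0.320) and by 0.02 in TCE rats (-0.44 to 0.49, adjusted p = 0.925). This comparison depended on the scaling: the control difference was 0.51 with an adjusted p of 0.00396 after centring each array on its median and -0.06 after quantile normalization. Its single probe set does not tell the A and C isoforms of the enzyme apart.

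Counted together, 7 of the 9 member probe sets tested between control liver and control kidney passed an adjusted p of 0.05, beside 61.9% of all 18609 probe sets tested. Of these, 6 were lower in liver, beside 35.1% of all, and 1 was higher, beside 26.8%. In TCE rats 6 of 9 passed, beside 61.2% of all, with 5 lower in liver beside 34.2% and 1 higher beside 26.9%. The share that passed is near that of the whole table. After centring each array on its median 5 were lower and 3 higher in control liver, beside 4506 lower and 9153 higher of all 18609. After quantile normalization 5 were lower and 2 higher, beside 5821 lower and 6906 higher of all. Of the 2 members higher after quantile normalization, 1 was the Pfkm probe set that shows no variation to describe. Its difference on the deposited values was -0.0079, so that call follows the scaling. Without kidney control 2, whose Alb level was high, 6 of 9 passed in control rats, beside 10511 of all 18609. Hk1 was then lower in liver by 5.66, the Pfkm probe sets by 4.28 and 2.43, Pfkp by 3.41 and Eno1 by 1.20. Ldha was higher by 2.59. The call lost was that of Pfkl, at an adjusted p of 0.0532.

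**Figure D2:**
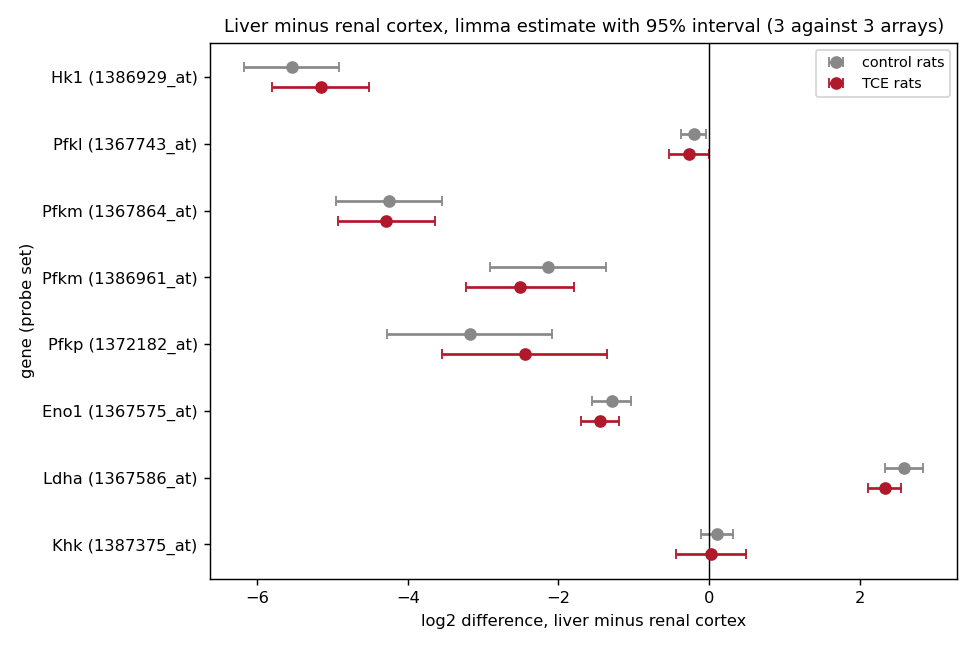
Difference in log2 expression between liver and renal cortex (horizontal axis, liver minus kidney) for the 8 member probe sets that varied and passed the filter, as limma estimate with its 95% interval (grey, 3 control rats; red, 3 TCE rats). Hk1 lies at -5.54 and -5.16, the Pfkm and Pfkp probe sets between -2 and -5, Eno1 below -1 and Ldha above 2, while Pfkl and Khk lie near 0.

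The order of the 4 groups followed the tissue for most members. Hk1 and the brightest Pfkm probe set ran from control kidney through TCE kidney and control liver to TCE liver, and the neighbours within a tissue overlapped. For Eno1 the same order held and no neighbours overlapped. The other Pfkm probe set was highest in TCE kidney and Pfkp lowest in control liver, with overlap within each tissue. Pfkl did not follow the tissue, with control kidney highest, then control liver, TCE kidney and TCE liver, none of them overlapping. Ldha ran from control liver to TCE liver without overlap and then to the kidneys, whose groups overlapped. Khk ran from control liver to control kidney with overlap, then without overlap to TCE liver, which overlapped TCE kidney.

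Pfkl was lower in every TCE rat than in every control rat, in liver and in kidney. In liver it read 6.82, 6.64 and 6.93 after TCE against 7.29, 7.24 and 7.25 in the controls. The TCE group was 0.46 log2 units lower (SE 0.09, 95% interval -0.69 to -0.24), a difference of -27.4% on the linear scale. The unadjusted p was 0.00302 and the adjusted p by limma 0.165, so the difference did not pass the threshold, and it ranked 340 by p among 18610 probe sets. In kidney Pfkl read 6.93, 7.13 and 7.13 after TCE against 7.54, 7.42 and 7.44 in the controls. The difference was -0.40 (SE 0.08, 95% interval -0.60 to -0.20), or -24.4%, with an unadjusted p of 0.00325 and an adjusted p of 0.195. The liver difference minus the kidney difference was -0.06 (SE 0.13, 95% interval -0.35 to 0.23, adjusted p = 0.859). When all 12 arrays shared 1 estimate of spread, the liver difference had an adjusted p of 0.0393 and the kidney difference did not pass.

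Eno1 had the same direction in both tissues. In liver it read 11.02, 11.26 and 11.18 after TCE against 11.65, 11.62 and 11.57, all TCE values lying lower. The difference was -0.46 (SE 0.08, 95% interval -0.67 to -0.25), or -27.4%, with an unadjusted p of 0.00206 and an adjusted p of 0.142. In kidney it read 12.51, 12.73 and 12.55 against 12.81, 13.10 and 12.82. The difference was -0.31 (SE 0.11, 95% interval -0.59 to -0.03), or -19.5%, with an unadjusted p of 0.0342 and an adjusted p of 0.309. The highest control value is that of kidney control 2, and without it the Eno1 difference was -0.22 while that of Pfkl was -0.43. The liver difference minus the kidney difference of Eno1 was -0.15 (95% interval -0.48 to 0.18, adjusted p = 0.641). Since both tissues come from the same 6 rats, the kidney values are no separate set of animals.

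Ldha and Khk were lower after TCE in liver without overlap, and in kidney the groups overlapped. Ldha read 14.07, 13.98 and 14.12 in TCE livers against 14.23, 14.41 and 14.37 in controls, a difference of -0.28 (SE 0.08) or -17.5%, with an adjusted p of 0.262. In kidney it read 11.72, 11.62 and 11.84 against 11.88, 11.74 and 11.60, a difference of -0.01 (95% interval -0.26 to 0.24). The liver difference minus the kidney difference of Ldha was -0.26 (95% interval -0.57 to 0.04, adjusted p = 0.352), so the tissues were not shown to differ. Khk read 11.91, 11.96 and 11.84 in TCE livers against 12.22, 12.18 and 12.04, a difference of -0.25 (SE 0.08) or -15.8%, with an adjusted p of 0.282. In kidney it read 11.82, 12.26 and 11.56 against 12.00, 11.99 and 12.14, where the TCE values spanned the controls, and the difference was -0.17 (95% interval -0.64 to 0.31).

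Hk1, Pfkm and Pfkp, all higher in kidney than in liver, gave no clear difference with TCE. In kidney, Hk1 averaged 8.52 ± 0.42 (SD, n = 3) after TCE and 8.94 ± 0.39 in controls, a difference of -0.42 (95% interval -1.15 to 0.31). Pfkp averaged 8.61 ± 0.34 and 9.03 ± 0.43, a difference of -0.41 (95% interval -1.12 to 0.29). For both genes kidney control 1 was the highest array and kidney TCE 2 the lowest. The brightest Pfkm probe set averaged 8.38 ± 0.20 and 8.45 ± 0.04, a difference of -0.07 (95% interval -0.35 to 0.22). In liver the TCE differences were -0.04 for Hk1, -0.09 for Pfkm and 0.32 for Pfkp, with an interval from -1.12 to 1.75 for the last. Without kidney control 2 the kidney differences were -0.54 for Hk1, -0.64 for Pfkp, -0.01 for Ldha and -0.19 for Khk, and that of the dimmer Pfkm probe set was -0.14 in place of 0.15, none of them past the threshold.

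Over the members, none of the 9 probe sets tested in liver passed an adjusted p of 0.05 by limma, beside 0% of all 18610, and 4 had an unadjusted p below 0.05, beside 13.8% of all. All 4 were lower after TCE, beside 6.52% of all in that direction, and the same 4 were lower without overlap, beside 8.8%. Of the 8 member probe sets that varied in liver, 7 averaged lower after TCE, beside 45.8% of all probe sets tested, with a median difference of -0.23 beside 0.02. In kidney none of 9 passed, beside 0% of all 18609, and 2 had an unadjusted p below 0.05, beside 14.5%. Both were lower, beside 6.5% in that direction, and both were lower without overlap, beside 8.8%. Again 7 of the 8 averaged lower, beside 48.9%, with a median of -0.24 beside 0.0023. Lower values without overlap in both tissues, as for Pfkl and Eno1, were seen in 0.553% of the 17732 probe sets tested in both. No member passed the test of the difference between the tissues' TCE effects, which 1.06% of all 18609 probe sets passed. None of the 9 had an unadjusted p below 0.05 there either, beside 17.7% of all. The 14 members include dim probe sets that did not enter these counts, and the genes were chosen knowing earlier results of these arrays, so the counts describe and do not test them.

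**Figure D3:**
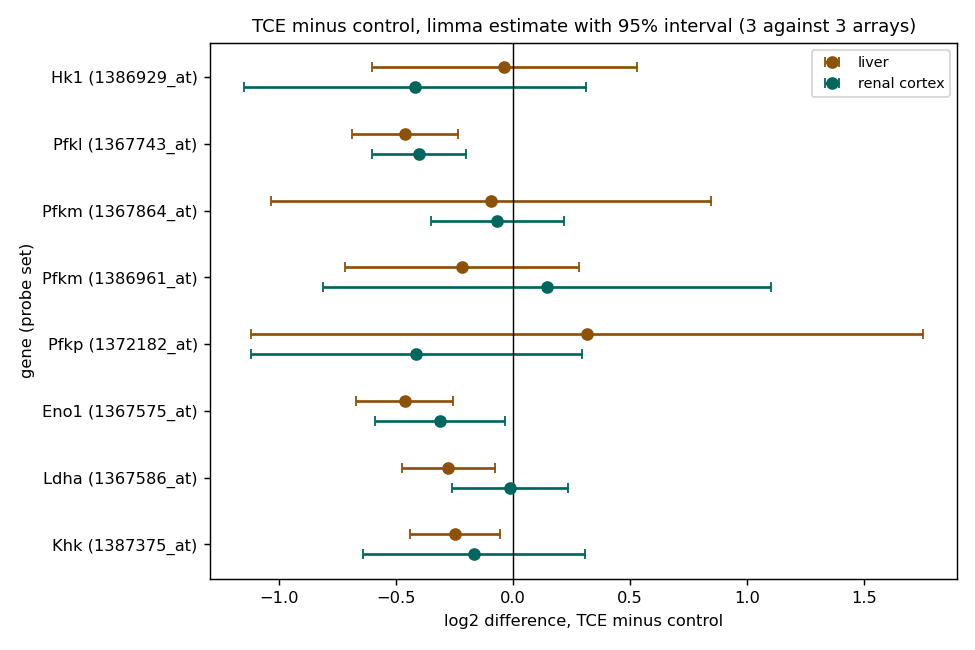
Difference in log2 expression between TCE and control rats (horizontal axis, TCE minus control) for the 8 member probe sets that varied and passed the filter, as limma estimate with its 95% interval from 3 against 3 arrays (brown, liver; green, renal cortex). The intervals of Pfkl and Eno1 lie below 0 in both tissues and those of Ldha and Khk in liver only, before any adjustment for the number of probe sets tested.

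A measure of RNA quality moved with the groups. The Gapdh control probe sets at the 3′ end exceeded those at the 5′ end by 1.70, 1.56 and 1.21 log2 units in TCE livers and by 0.78, 0.80 and 0.86 in control livers, without overlap. The exact permutation p was 0.1, the smallest that 3 against 3 allows. In kidney the same gap ran the other way, from 0.51 to 0.87 after TCE and from 0.85 to 1.05 in controls, with an exact permutation p of 0.2. The Actb gap was 5.09 to 5.67 in TCE livers and 4.31 to 5.24 in control livers, with an exact permutation p of 0.3. In kidney it was 4.20 to 4.36 after TCE and 4.40 to 4.56 in controls, without overlap and with an exact permutation p of 0.1. When this Gapdh gap entered the fit as a covariate, the liver differences were -0.24 (SE 0.21) for Pfkl, -0.30 (SE 0.21) for Eno1, -0.20 (SE 0.21) for Ldha and -0.33 (SE 0.20) for Khk. In kidney they were -0.34 (SE 0.13) for Pfkl and -0.30 (SE 0.19) for Eno1, and no member kept an unadjusted p below 0.05 in either tissue. Over all probe sets the number with such a p by limma fell from 2564 to 1148 in liver and from 2697 to 1462 in kidney. Since the gap separated the liver groups, this fit can hardly tell the gap from TCE in liver. The part of RNA quality in the values of either tissue was not tested beyond this.

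Some marker sums of other cells lay apart between TCE and control arrays, while no marker passed the adjusted test in either tissue. In the test of the liver effect minus the kidney effect, 1 of 3 erythroid markers tested passed as lower. There 1 of 8 fibroblast, stellate and smooth muscle markers passed as higher. Of all 18609 probe sets, 141 passed that test as lower and 57 as higher. Of the 7 erythroid markers listed, 4 were found on the array. Their summed linear level was 10957 to 16480 in TCE livers and 20003 to 25668 in control livers. Of the 4, 3 were lower without overlap, beside 8.8% of all probe sets tested. In kidney the erythroid sums overlapped, from 7910 to 10947 after TCE and from 5165 to 13151 in controls. Epb42 was at the lowest value on all kidney arrays. Neutrophil markers, 3 of 5 found, summed to 266 to 334 in TCE livers and 106 to 174 in control livers. Fibroblast, stellate and smooth muscle markers, all 8 found, summed to 5733 to 7090 against 4962 to 5245 in liver. Of the 8, 3 were higher without overlap, beside 1934 of all 18610 probe sets tested. Podocyte markers, 4 of 5 found, summed to 2003 to 2595 in TCE kidneys and 1506 to 1728 in control kidneys. Of the 4, 3 were higher without overlap, beside 1988 of all 18609 probe sets tested. In liver the same markers, far dimmer, summed to 115 to 157 after TCE and 73.0 to 96.7 in controls. There 1 of the 4 was higher without overlap, beside 1934 of all 18610 probe sets tested. Macrophage markers, 6 of 7 found, summed to 439 to 539 in TCE kidneys and 385 to 403 in control kidneys. Of the 6, 2 were higher without overlap, beside the same 1988 of 18609. In liver the macrophage sums overlapped, and so did the endothelial sums in both tissues. The part of these cells in the isoenzyme values was not tested.

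The other enzymes of glycolysis, from a list of 18 genes of which 13 had a probe set of their own, gave no TCE difference that passed the test. In liver 6 of the 9 tested averaged lower, beside 45.8% of all probe sets, with a median of -0.13 beside 0.02. Of the 9, 2 had an unadjusted p below 0.05 and were lower, beside 6.52% of all in that direction. These were Pgam1, a phosphoglycerate mutase, and Pklr, the liver pyruvate kinase. Pklr read 11.28, 11.70 and 11.54 after TCE against 12.50, 12.35 and 12.04, a difference of -0.79 (SE 0.17, adjusted p = 0.184). Its other probe set differed by -1.05. Pgam1 read 12.24, 12.33 and 12.29 against 12.69, 12.64 and 12.63, a difference of -0.37 (SE 0.06, adjusted p = 0.124). Pgk1, a phosphoglycerate kinase, differed by -0.19 and Tpi1, a triose phosphate isomerase, by -0.13, both with overlap. Another bright Pgk1 probe set differed by -0.43 in liver and by 0.04 in kidney. In kidney 9 of 11 averaged lower, beside 48.9% of all, with a median of -0.12 beside 0.0023. The 2 of them lower with an unadjusted p below 0.05, beside 6.5% of all in that direction, were Pklr, at -0.56 (SE 0.16, adjusted p = 0.251), and Aldoa, an aldolase, at -0.23 (SE 0.06, adjusted p = 0.241). None of the list passed in either tissue. Pkm was not analysed here.

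Several of the neighbouring enzymes also differed between the tissues. Ldhb, the lactate dehydrogenase subunit that favours pyruvate formation, was lower in control liver than in control kidney by 7.77 log2 units (SE 0.12, 218-fold, adjusted p = 3.26e-07), the reverse of Ldha. Aldoa was lower by 3.89 (SE 0.11, 14.8-fold, adjusted p = 2.56e-06), while Pklr was higher by 3.43 (SE 0.18, 10.8-fold, adjusted p = 2.93e-05). Of the 9 listed enzymes tested, 7 passed, beside 61.9% of all, with 1 higher in liver beside 26.8% and 6 lower beside 35.1%. In TCE rats 7 of 9 passed, beside 61.2%, with 1 higher beside 26.9% and 6 lower beside 34.2%, and Ldhb, Aldoa and Pklr gave -7.66, -3.53 and 3.20.

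Regulators of the phosphofructokinase and glucokinase steps differed between tissues and showed no TCE difference that passed. Gckr, the glucokinase regulatory protein, read 11.79 to 11.90 in control livers and 2.41 to 3.04 in control kidneys, with an adjusted p of 9.31e-07. Pfkfb1, the liver enzyme that makes and removes fructose 2,6-bisphosphate, read 10.90 to 11.76 in control livers and 2.20 to 2.25 in control kidneys, with an adjusted p of 1.70e-06. The kidney values of both lie near the lowest value of the table, so the direction was measured and the size of the difference was not. Pfkfb4 and Pfkfb3, of the same enzyme family, were higher in kidney, with control kidneys at 7.81 to 8.29 and 7.92 to 8.07, while the control livers read from 3.20 to 4.18 over both genes, near the array medians, so these sizes are not exact. The other probe sets of Pfkfb4 and Pfkfb3 averaged 2.17 to 2.18 in every group, at or near the lowest value, and show no difference to describe. Of the 6 regulators tested between control tissues, 2 passed as higher in liver, beside 26.8% of all, and 3 as lower, beside 35.1%. With TCE none of 7 in liver and none of 6 in kidney had an unadjusted p below 0.05, and the smallest was that of Pfkfb1 in liver, at -0.50 (SE 0.33).

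The steps around Khk were followed through 7 genes with a probe set of their own out of 8 listed. Tkfc, the triokinase that phosphorylates the glyceraldehyde made from fructose, read 12.08, 12.16 and 12.14 in TCE livers against 12.60, 12.44 and 12.46. The difference was -0.37 (SE 0.07, adjusted p = 0.157), and in kidney it was -0.34 (SE 0.13, adjusted p = 0.334), without overlap in either tissue. A dim further Tkfc probe set differed by -1.50 in liver and by 0.05 in kidney. Glyctk, a glycerate kinase, differed by -0.61 in liver (SE 0.11, adjusted p = 0.146) and by -0.02 in kidney. Its other probe sets differed by -0.32 and -0.41 in liver and by -0.26 and -0.13 in kidney. The fructose transporter Slc2a5 differed by -0.53 in liver with overlap and by -0.28 in kidney without, and the transporter Slc2a8 by 0.25 in liver and by -0.47 in kidney (SE 0.10, adjusted p = 0.214). Akr1b1, the aldose reductase that begins the polyol route from glucose to fructose, read 10.37, 8.58 and 10.78 in TCE kidneys against 8.99, 8.71 and 8.76, with 1 TCE value below and 2 above all controls. The difference was 1.09 (SE 0.59, adjusted p = 0.457). In all, 2 of 7 genes had an unadjusted p below 0.05 in liver, each of them lower, beside 6.52% of all in that direction, and 2 of 7 in kidney, each lower, beside 6.5%. None passed after adjustment. Between control tissues Slc2a5 was lower in liver by 2.52 log2 units (SE 0.09, adjusted p = 7.49e-06) and Tkfc higher by 0.48 (SE 0.08, adjusted p = 0.00263).

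**Figure D4:**
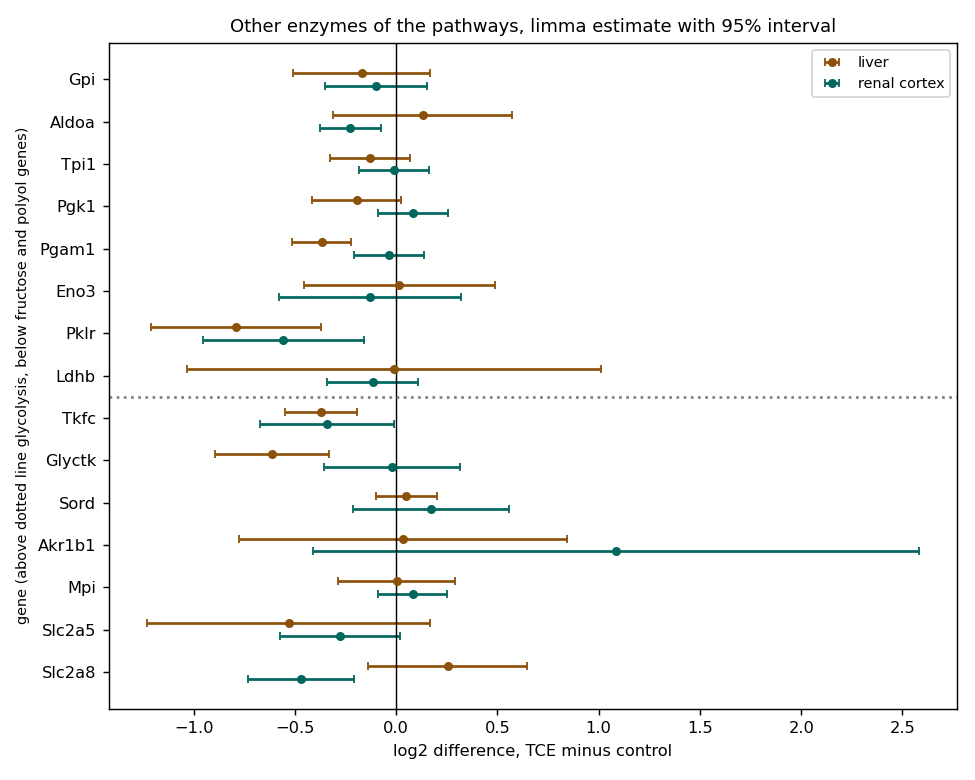
Difference in log2 expression between TCE and control rats (horizontal axis, TCE minus control) for the other enzymes of glycolysis (above the dotted line) and the fructose and polyol genes (below it), as limma estimate with its 95% interval from 3 against 3 arrays (brown, liver; green, renal cortex). Pklr lies at -0.79 in liver and -0.56 in kidney and Tkfc at -0.37 and -0.34, and no gene passed the test after adjustment.

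Genes known to respond to carbohydrate through the factor ChREBP, which drives Pklr and lipogenic enzymes, gave no difference that passed in either tissue. In liver 10 of 11 averaged lower after TCE, beside 45.8% of all probe sets, with a median of -0.36 beside 0.02, and 3 were lower with an unadjusted p below 0.05, beside 6.52% of all. In kidney 7 of 11 averaged lower, beside 48.9%, with a median of -0.24 beside 0.0023, and 3 were lower at that p, beside 6.5%. Besides Pklr and Tkfc, which also stand in the lists above, the third was Fasn, the fatty acid synthase, at -0.85 (SE 0.29, adjusted p = 0.315) in liver and -0.24 (SE 0.09, adjusted p = 0.339) in kidney. The other Fasn probe set differed by -1.31 in liver and by -0.53 in kidney. Mlxipl, which encodes ChREBP, averaged 8.57 in TCE livers and 8.80 in control livers. Genes known to respond to hypoxia, outside glycolysis, had no common direction. Of 13 tested, 5 averaged higher and 8 lower in liver, beside 45.8% of all lower. In kidney 8 averaged higher and 5 lower, beside 48.9% lower. Ankrd37 differed by 0.86 in liver (SE 0.13, adjusted p = 0.123) and by 0.50 in kidney (SE 0.12, adjusted p = 0.241). Pdk1 differed by -0.97 in liver (adjusted p = 0.137) and by 0.82 in kidney (adjusted p = 0.197), and Ndrg1 by -0.37 in kidney (adjusted p = 0.256). No gene of either list passed within a tissue. Over all 5 lists and without kidney control 2, 33 of 44 genes passed between the control tissues in place of 35. Of all 18609 probe sets tested, 10511 passed in place of 11513. Of the 33 genes, 32 passed both ways and none of the 35 changed direction, and the calls lost were those of Pgk1, Hif1a and Kdm3a. Ldhb was then lower in liver by 7.78, Aldoa by 3.88 and Slc2a5 by 2.53, and Pklr was higher by 3.37 and Tkfc by 0.47. Without that array the kidney TCE difference was -0.62 for Pklr, -0.22 for Aldoa, -0.35 for Tkfc, -0.43 for Slc2a8, -0.28 for Fasn and 1.03 for Akr1b1. None of the 46 list genes passed in kidney with or without it, and 4 with small differences changed sign.

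The genes whose pattern was most like each member's were found by Pearson r over the 12 arrays, after the mean of each tissue was taken off, among 14085 probe sets with 1 symbol. The points share the 6 rats and the TCE difference, and no p is attached. Pfkl was most like Uba1 (r = 0.927) and Osbpl1a (0.919), and Eno1 most like Tm6sf2 (0.934) and Sdhc (0.927). Ldha was most like Cpt1a (0.927) and Prkcq (0.923), and Khk most like Cyp2d2 (0.917) and Ctdsp1 (0.916). Hk1 was most like Pcif1 (0.938) and Gigyf2 (0.919), Pfkm most like Cacna1d (0.949) and Pon1 (0.938), and Pfkp most like Gltp (0.932) and Plvap (0.899). With so many probe sets searched over 12 arrays, values of this size describe likeness only, and no member appears in the list of another.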

How the data were processed

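Total RNA of 12 tissue samples was hybridised to rat whole-genome Affymetrix arrays, per the labels' protocols. The values are log2 expression of 31099 probe sets as the authors deposited them, and they were not normalized again. That they are log2 follows from their range. The submitters' processing notes name affy and limma. Versions, background correction and normalization: not given in the sources used here. GEO's platform annotation gave 1 symbol to 20832 probe sets. Tests did not include the 57 control probe sets.

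Each comparison was fitted by lmFit and eBayes of limma 3.58.1 under R 4.3.3, at default settings and two-sided, on the arrays of the groups compared, and on all 12 for the difference between the tissues' TCE effects. Tested were probe sets with a mean, over the arrays fitted, above the table's 40th percentile (2.45 log2 units in liver, 2.43 in kidney and 2.54 to 2.55 between tissues). P-values were adjusted by Benjamini-Hochberg over all probe sets of a fit, with a threshold of 0.05. SE is limma's moderated standard error and intervals are its 95% intervals. Gapdh and Actb gaps were compared by exact permutation, two-sided. The fit was tested on simulated data.

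All probe sets of the 8 genes are named whatever their values. A gene of another list is represented by its own probe set of highest mean over the 12 arrays, and up to 4 genes of smallest p in a comparison are named. The members and lists were chosen with earlier results of these data known. Equal replicate numbers were not treated as pairs: the labels do not say what they mark, and no deviation of same-numbered arrays correlated above 0.1. Alternatives were other filters, 1 probe set per gene, quantile normalization, median centring, a replicate block, array weights, variances with trend and robust settings, the Gapdh gap as covariate, all 12 arrays in 1 fit and leaving out each array. Leaving out probe sets constant within a group was chosen after seeing the data. Promoter sequences are from RefSeq, build GRCr8.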

Additional observations from a re-analysis of the deposited data

Results flagged for a closer look

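Pdk1, a kinase that inhibits pyruvate dehydrogenase and stands in the list of hypoxia response genes, was singled out because its TCE effects in liver and kidney differed by test. It read 9.36, 9.67 and 9.84 in TCE livers against 10.84, 10.51 and 10.44 in control livers, and 5.72, 6.11 and 5.57 in TCE kidneys against 4.87, 4.91 and 5.15 in control kidneys. The liver difference was -0.97 and the kidney difference 0.82, neither of which passed within its tissue. The liver effect minus the kidney effect was -1.79 (SE 0.25), with an adjusted p of 0.0141 by limma. With the Gapdh gap as covariate the estimate was -1.77 (SE 0.54) with an adjusted p of 0.840, so it did not pass there. It also missed the threshold with the replicate block, at an adjusted p of 0.0508, and without kidney control 1, at 0.0502. Under the other alternatives the adjusted p ran from 0.00779 to 0.0416. Its other probe set differed by -0.65 in liver and by 0.16 in kidney.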

How the results depend on the processing

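No member passed the TCE test in liver except under 1 alternative, all 12 arrays in 1 fit, where 1 member did, Pfkl. Over all alternatives the liver difference ran from -0.53 to -0.24 for Pfkl, -0.51 to -0.30 for Eno1, -0.33 to -0.20 for Ldha and -0.33 to -0.19 for Khk, and in kidney from -0.45 to -0.34 for Pfkl and -0.38 to -0.22 for Eno1.

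Small differences changed sign. With the Gapdh gap as covariate the TCE difference of the brightest Pfkm probe set was 0.43 in liver and 0.17 in kidney, that of the dimmer Pfkm probe set in kidney -0.16 and that of Khk in kidney 0.31, the liver minus kidney effect was 0.039 for Pfkl and 0.11 for Pfkm, and the tissue difference of Khk in TCE rats was -0.62. With centring, Ldha in kidney was 0.0030 and the tissue difference of Pfkl 0.20 in control and 0.12 in TCE rats. With quantile normalization the tissue difference of Khk was -0.057 and -0.048. Leaving out 1 array gave these ranges for the TCE difference: in liver -0.21 to 0.11 for Hk1, -0.40 to 0.16 for Pfkm and -0.13 to 0.69 for Pfkp, and in kidney -0.14 to 0.049 and -0.14 to 0.43 for the Pfkm probe sets and -0.082 to 0.057 for Ldha. For the liver minus kidney effect it gave -0.13 to 0.019 for Pfkl, -0.33 to 0.23 for Pfkm and -0.24 to 0.11 for Khk, and for the tissue difference of Khk in TCE rats -0.14 to 0.21. The cause was not tested.

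Among all probe sets, the TCE calls were 0 in both tissues, but 21 in liver and 5 in kidney without the filter, 1 in kidney with the 60th percentile filter, 339 and 26 with all 12 arrays, and 1 in liver without liver TCE 1. The 198 calls of the liver minus kidney effect became 57 with 1 probe set per gene, which tests fewer, 448 with array weights, 50 with the replicate block, 0 with the covariate and 40 to 411 on leaving out an array. The tissue calls were 7308 in control and 7194 in TCE rats with 1 probe set per gene, and 5718 in TCE rats with the covariate. The share of tissue calls higher in liver was 43.3% in control and 44.0% in TCE rats, 54.3% and 54.0% after quantile normalization and 67.0% and 66.6% after centring, which moved the median of all probe sets from -0.07 to 0.34 and from -0.05 to 0.33. With the covariate the dimmer Pfkm probe set and Pfkp no longer passed between TCE tissues, at adjusted p of 0.104 and 0.321. The replicate block removed the Pfkl call between control tissues and no other member call. Same-numbered arrays had correlations of deviations from -0.08 to 0.08. Each of the 3 numbers correlated best with itself between the control tissues, 1 of 3 between the TCE tissues and 0 within a tissue, a hint from the data and not the design. The number of arrays, 3 a group, limits the precision.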
